A study of Mus musculus with 6 samples.

Results

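The genes described here are 45 genes of the mitotic spindle and the kinetochore. They were chosen by name as a group with a shared function, out of 19929 genes that the arrays measured with a probe naming 1 gene. The choice was made with earlier results of these data known, so counts set against all genes describe the list and do not test it. The 45 genes were followed in CD8 T cells of C57BL/6.H2g7/g7 background mice that carry AI4, a transgenic T cell receptor for a beta cell antigen. The sort from pancreas used anti-CD8 together with MimA2/H-2Db tetramer. One group of 3 arrays came from AI4 mice, which developed type 1 diabetes, and the other group of 3 arrays came from Rip-B7xAI4 mice, which carry the same receptor and were resistant to the disease. In Rip-B7x mice the rat insulin promoter drives B7x, a member of the B7 family that inhibits T cells. This promoter places expression of the transgene in beta cells and not in the T cells measured. Each array held RNA from pooled pancreata of 1 genotype, and neither the number nor the age of the mice is given in the sources used here. The titles call the 3 arrays of a group biological replicates. Genotype and disease outcome go together in these mice, so their effects cannot be told apart. The 45 genes were matched to the arrays as 44 by symbol and 1, Sgo1, through its older symbol Sgol1. Where a gene had several probes the one with the highest mean was used, which mattered for Top2a alone. Of the 45 genes, 43 were tested, and the kinesin genes Kif2c and Kif4 were among the 30% of all genes with the lowest mean, which were not tested.

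A dividing cell builds a spindle of microtubules, and each chromosome attaches to it through a kinetochore, a protein layer assembled on the centromere. Motor proteins of the kinesin family sort and move the chromosomes, condensin compacts them, and the spindle checkpoint holds back the anaphase-promoting complex until every kinetochore is attached. Most of these genes are transcribed only late in the cell cycle, so their RNA in a population of T cells depends on the share of cells in G2 and mitosis as well as on the RNA per cell. In bulk samples a larger share of dividing cells and more RNA in each of them cannot be told apart. Antigen-stimulated CD8 T cells are known to divide rapidly, while naive and resting memory cells divide rarely.

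Genes of this group are known to be repressed in resting cells by the DREAM complex and activated by B-Myb and FoxM1 in G2, and the promoter element through which this works is called the CHR (cell cycle genes homology region), with the letters TTTGAA. It often lies near the start site, downstream of boxes with the letters CCAAT that bind the factor NF-Y. The members' promoters were searched for both because the genes were higher together in one group, as described below. RefSeq promoters of build GRCm38.p6, from 250 bases before to 50 bases after the start, were found for 38 of the 45 genes, and Aurkb, Incenp, Kif20a, Shcbp1, Smc4, Spc24 and Tpx2 were not matched. The windows below run from 100 bases before the start site through the first 30 bases of the transcript, 5′ to 3′ on the gene's strand. Capitals mark TTTGAA and CCAAT in either orientation (the reverse strand reads TTCAAA and ATTGG). Prc1, Kif11, Kif23 and Ube2c are shown because they had some of the clearer differences between the groups, and Cdc20, Racgap1 and Espl1 because they hold the same 2 elements but differed little.
Prc1 (chr7:80294351-80294480, plus strand): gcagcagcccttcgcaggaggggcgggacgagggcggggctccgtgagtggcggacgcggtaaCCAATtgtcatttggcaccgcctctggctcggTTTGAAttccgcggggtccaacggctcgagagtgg
Kif11 (chr19:37376282-37376411, plus strand): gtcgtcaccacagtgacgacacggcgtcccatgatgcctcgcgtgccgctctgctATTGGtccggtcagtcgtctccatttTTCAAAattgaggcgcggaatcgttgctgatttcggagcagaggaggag
Kif23 (chr9:61946770-61946899, minus strand): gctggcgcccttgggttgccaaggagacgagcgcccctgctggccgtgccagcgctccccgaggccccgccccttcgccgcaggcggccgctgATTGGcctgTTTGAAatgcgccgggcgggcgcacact
Ube2c (chr2:164769829-164769958, plus strand): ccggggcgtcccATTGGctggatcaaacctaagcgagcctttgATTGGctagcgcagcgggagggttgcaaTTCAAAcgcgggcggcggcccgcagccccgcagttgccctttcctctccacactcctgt
Cdc20 (chr4:118437314-118437443, minus strand): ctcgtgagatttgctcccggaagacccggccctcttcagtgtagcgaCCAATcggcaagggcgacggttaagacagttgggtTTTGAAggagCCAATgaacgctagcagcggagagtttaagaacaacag
Racgap1 (chr15:99651627-99651756, minus strand): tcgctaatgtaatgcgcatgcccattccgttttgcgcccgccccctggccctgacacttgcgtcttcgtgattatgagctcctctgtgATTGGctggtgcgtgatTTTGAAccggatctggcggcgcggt
Espl1 (chr15:102296193-102296322, plus strand): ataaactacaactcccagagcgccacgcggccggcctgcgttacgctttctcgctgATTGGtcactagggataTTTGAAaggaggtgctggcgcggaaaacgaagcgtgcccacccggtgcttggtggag

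In each of the 7 windows a CHR lies close to the start site and a CCAAT box lies before it, and in Cdc20 a second CCAAT box follows the CHR. Over all 38 genes with a promoter, 28 (73.7%) held TTTGAA on either strand, against 20.2% of all 27025 genes with a promoter and 18.5% of the 17492 coding genes among them. In 26 of the 38 the CHR began within 50 bases of the start site, which was so for 5.72% of all genes. The CCAAT box was present in 27 of the 38, or 71.1%, against 41.1% of all genes, and both elements were present in 22, or 57.9%, against 7.97%. An E2F core with the letters GGCGGGAA was found in 2 of the 38 (2.52% of all genes held one), and a TATA box with the letters TATAAA in 2 as well (15.7% of all genes). The letters of the CHR and the CCAAT box do not overlap as motifs. A match describes the letters of a window and is not evidence of binding. Among the tested members the median log2 difference between the groups was 1.26 for the 26 with a CHR and 1.86 for the 10 with none, so members with the element did not have the larger differences. Over all tested genes with a promoter the median was -0.06 for 1624 genes that hold a CHR and -0.10 for 9420 that do not.

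**Figure D1:**
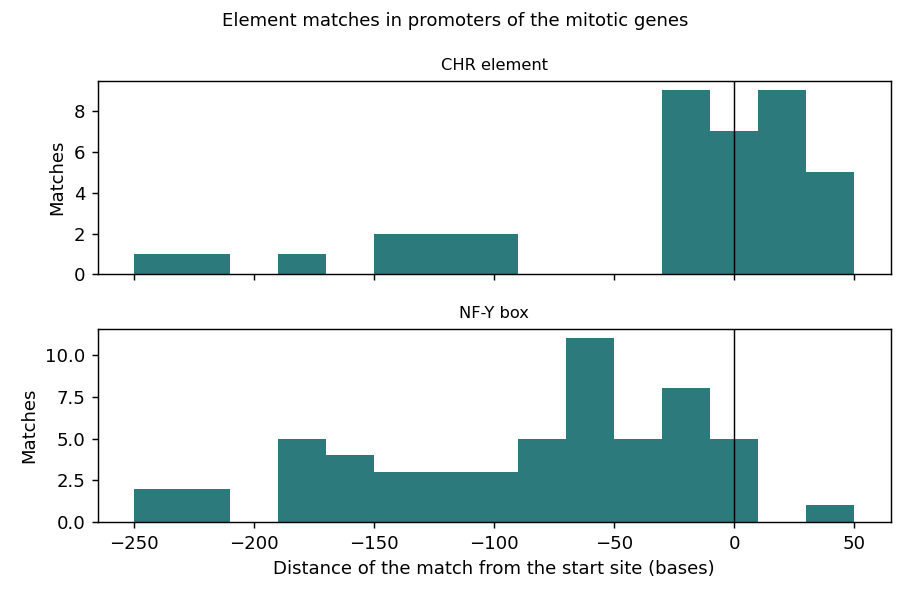
Distance in bases of each CHR element (upper panel) and each NF-Y box (lower panel) from the start site, over 42 promoters of 38 mitotic genes, in bins of 20 bases, with the number of matches on the vertical axis. Of 39 CHR matches, 30 began within 50 bases of the start site, against 19 of 57 NF-Y box matches, most of which lie further upstream. Where promoters of 1 gene overlap, as for Ect2 and Prc1, the same site is counted from each start, so matches are not all distinct sites.

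Array medians over all probes lay between 5.94 and 6.10 log2, and interquartile ranges between 1.71 (AI4 replicate 1) and 2.13 (Rip-B7xAI4 replicate 1). Over all tested genes AI4 replicate 1 stood apart. It correlated at 0.80 with AI4 replicates 2 and 3 and at 0.72, 0.78 and 0.77 with Rip-B7xAI4 replicates 1 to 3. AI4 replicates 2 and 3 correlated at 0.91 with each other, as did AI4 replicate 3 with Rip-B7xAI4 replicate 2. The labelled cell type was checked with 9 CD8 T cell markers, which were bright on every array: their mean ranged from 10.06 to 10.57 over the AI4 arrays and from 10.03 to 10.67 over the Rip-B7xAI4 arrays. Cd8a stood at 10.89, 10.43 and 10.10 in AI4 replicates 1 to 3 and at 9.71, 10.42 and 9.21 in Rip-B7xAI4 replicates 1 to 3. The 17 myeloid markers stood apart in 2 arrays: their mean reached 8.90 and 8.91 in Rip-B7xAI4 replicates 1 and 3, but 6.05 in replicate 2, with the AI4 arrays from 5.92 to 6.50. Of these 17 markers, 16 in Rip-B7xAI4 replicate 1 and 17 in replicate 3 lay above every AI4 array, but 2 did in replicate 2. The share of all tested genes doing so was not counted for replicates 1 and 3. Lyz2 stood at 7.36, 4.73 and 7.57 in AI4 replicates 1 to 3 and at 11.40, 5.59 and 9.64 in Rip-B7xAI4 replicates 1 to 3. Adgre1, a macrophage surface receptor, stood at 5.34, 5.17 and 5.39 in AI4 and at 8.93, 5.06 and 6.57 in Rip-B7xAI4. Each further marker list is given as its range of array means in AI4 and then in Rip-B7xAI4. These were 5.85 to 6.38 and 5.93 to 6.70 for 7 B cell genes, 4.93 to 4.98 and 5.47 to 5.77 for 5 NK cell genes, and 6.24 to 6.56 and 5.75 to 6.18 for 8 endothelial and stromal genes. They were 5.69 to 5.83 and 5.62 to 5.77 for 8 acinar genes, 5.40 to 5.73 and 5.22 to 5.53 for 7 beta cell genes, and 6.10 to 6.44 and 5.88 to 7.68 for 2 erythroid genes. By these means the NK cell list was higher, and the endothelial and stromal list lower, on every Rip-B7xAI4 array, but by medians neither held. The NK cell median was 4.52 in Rip-B7xAI4 replicate 2 against 4.56 to 4.87 in AI4, and 1 of its 5 genes, Eomes, was bright enough to be tested. The endothelial and stromal median was 6.20 in Rip-B7xAI4 replicate 3 and 5.92 in AI4 replicate 3. As single genes, 2 of the 5 NK cell genes, Klrb1c and Klre1, were higher on every Rip-B7xAI4 array (4.62% of all genes without the filter). Both were too dim to be tested. Of the 8 endothelial and stromal genes 2, Pecam1 and Pdgfrb, were lower on every Rip-B7xAI4 array, as were 1656 of all 13950 tested genes. The part of these lists in the results on the mitotic genes was not tested.

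The mitotic genes were higher in the sorted samples from Rip-B7xAI4 mice, almost without exception in direction and with widely different sizes. Of 45 genes, 44 had a higher mean in Rip-B7xAI4, and Smc4 alone had a lower one. Among the 43 tested, 28 were higher by more than 1 on the log2 scale, as 4.82% of all 13950 tested genes were, and 12 were higher by more than 2, against 0.674% of all tested genes. No member passed an adjusted p of 0.05 in limma (Benjamini-Hochberg over all tested genes), where a single gene, or 0.00717% of all tested, passed in that direction. The smallest adjusted p of a member was 0.145, reached by Prc1, Knl1 and Shcbp1. The filter used the mean over all 6 arrays, with a limit of 5.471. The AI4 means of Prc1, Knl1 and Shcbp1 (5.13, 5.09 and 4.95) lay below it, so their Rip-B7xAI4 values brought them into the test. The same held for Bub1b, Ttk, Nuf2, Cenpk, Anln, Ect2, Kif20a, Ncapg and Ncaph. At an unadjusted p under 0.05, 26 of 43 were higher and 0 lower in limma, against 5.56% of all genes higher and 3.17% lower. At an unadjusted p under 0.01, 19 were higher, against 1.67% of all genes. These 19 make up 8.15% of all genes that were higher at that limit and 44.2% of the tested members. For 23 of the 43 (53.5%) the lowest Rip-B7xAI4 array exceeded the highest AI4 array, while 5.99% of all tested genes did so. The gap was under 0.10 for 4 of these, Ttk, Cenpk, Ect2 and Tpx2. In a limma fit without the filter, 28 of 45 members were higher at an unadjusted p under 0.05 (4.4% of all genes). At 0.01 there were 20 (1.38%), and 24 had no overlap (4.62%). The smallest adjusted p of a member was 0.166 in that fit. The median difference was 1.38 over the 43 members and -0.10 over all tested genes, of which 39% had a positive difference. For single values the smallest p that an exact permutation of 3 against 3 arrays can give is 0.1.

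**Figure D2:**
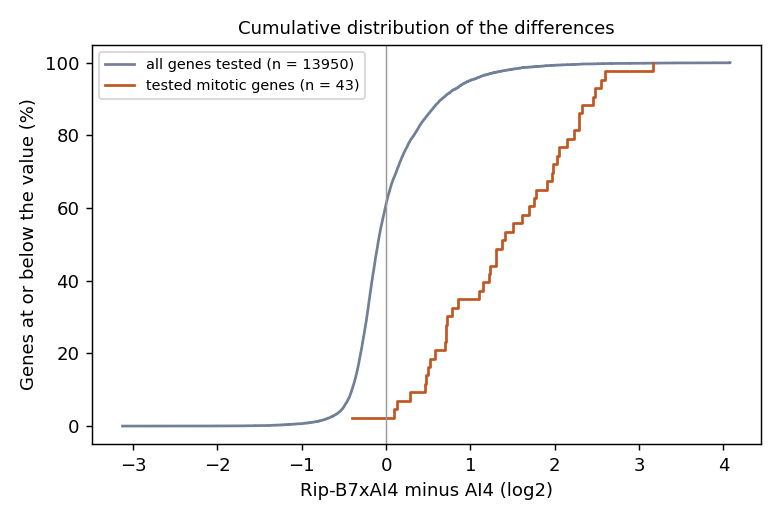
Cumulative share of genes (vertical axis, percent) at or below each log2 difference, Rip-B7xAI4 minus AI4 (horizontal axis), for all 13950 tested genes and for the 43 tested mitotic genes. The curve of the mitotic genes lies to the right, with a median of 1.38 against -0.10, and starts at -0.40, the value of Smc4.

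**Figure D3:**
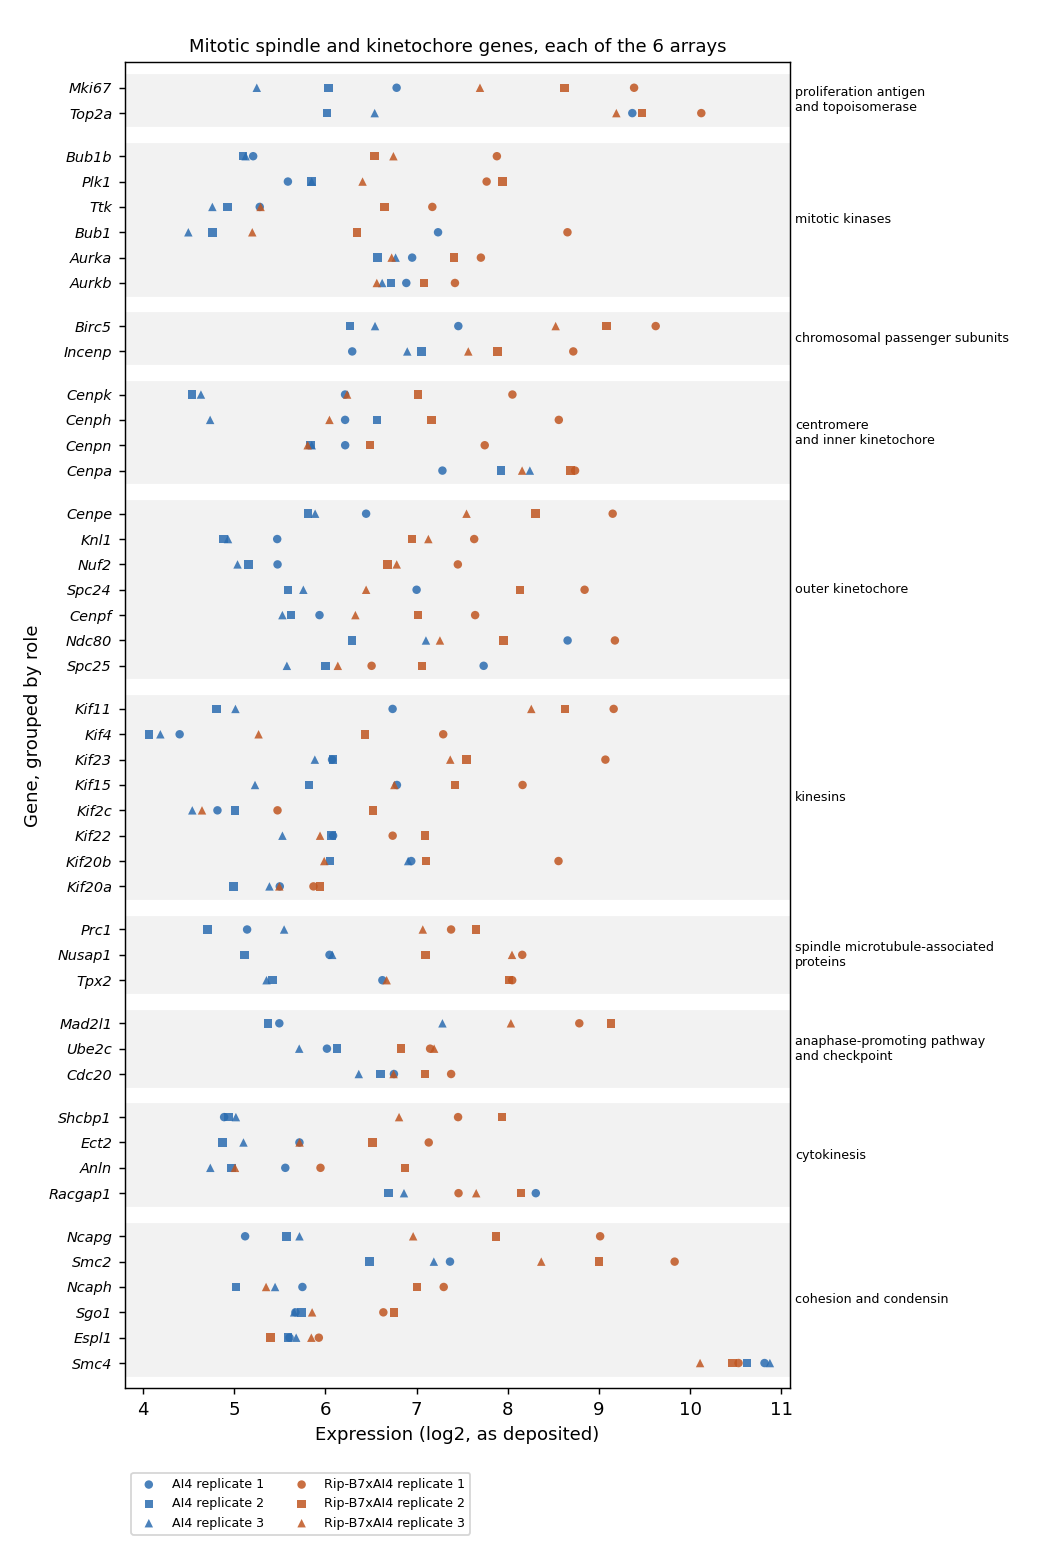
Deposited log2 value (horizontal axis) of each of the 45 genes on each of the 6 arrays, with AI4 in blue, Rip-B7xAI4 in orange and 1 symbol per replicate number. In most rows the orange points lie to the right of the blue ones; Rip-B7xAI4 replicate 3 is the orange point nearest to AI4 in many rows, and AI4 replicate 1 is the highest blue point in 30 of the 45.

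Mki67 and Top2a, the usual proliferation markers, differed by more than 2. Mki67 (probe 10568714) encodes Ki-67, which coats mitotic chromosomes. It stood at 6.78, 6.03 and 5.25 in AI4 replicates 1 to 3 and at 9.39, 8.62 and 7.70 in Rip-B7xAI4 replicates 1 to 3. The groups did not overlap, and replicate 1 was the highest array in both. The difference was 2.55 ± 0.53 (SE), with an adjusted p = 0.266 in limma. Top2a (probe 10390707), the topoisomerase that untangles sister chromatids, stood at 9.37, 6.02 and 6.54 in AI4 and at 10.12, 9.47 and 9.19 in Rip-B7xAI4. AI4 replicate 1 thus reached the Rip-B7xAI4 range, 2.8 or more above the other AI4 arrays, and the groups overlapped. The difference was 2.29 ± 0.84 (limma adjusted p = 0.545), and it was 3.32 without AI4 replicate 1. A second, dimmer Top2a probe (10390746) differed by 0.98.

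The 6 mitotic kinases all had a positive difference. Of these, 3 were higher on every Rip-B7xAI4 array, as 5.99% of all tested genes were, and 3 overlapped between groups. Bub1b encodes BubR1, a checkpoint component that restrains Cdc20. Bub1b was close to flat in AI4, at 5.21, 5.10 and 5.12, and stood at 7.88, 6.54 and 6.75 in Rip-B7xAI4. The Bub1b difference of 1.91 ± 0.35 was the largest of the kinases (limma adjusted p = 0.206). Plk1, the polo-like kinase that drives entry into mitosis, stood at 5.59, 5.85 and 5.85 in AI4 and at 7.77, 7.94 and 6.41 in Rip-B7xAI4, a difference of 1.61 ± 0.41. Ttk (Mps1), which starts the checkpoint signal, stood at 5.28, 4.93 and 4.76 against 7.17, 6.65 and 5.29. Its groups were separated by 0.01 only, through Rip-B7xAI4 replicate 3. Bub1, which recruits checkpoint proteins to the kinetochore, varied more within the groups than between them, at 7.24, 4.76 and 4.50 in AI4 against 8.66, 6.35 and 5.20 (difference 1.24 ± 1.04). The Bub1 difference was 0.28 without Rip-B7xAI4 replicate 1 and 2.10 without AI4 replicate 1. The Aurora kinases differed least. Aurka, which acts at centrosomes, had means of 6.76 ± 0.19 (SD, n = 3) and 7.28 ± 0.50 (SD, n = 3), and the 95% interval of its difference ran from -0.15 to 1.18. Aurkb had means of 6.74 ± 0.13 (SD, n = 3) and 7.02 ± 0.43 (SD, n = 3), with an interval from -0.31 to 0.87. Both depended on single arrays: without Rip-B7xAI4 replicate 1 and without replicate 3 the difference was 0.30 and 0.79 for Aurka, and 0.080 and 0.51 for Aurkb.

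Aurkb is the kinase of the chromosomal passenger complex, and its partners Birc5 and Incenp had larger differences than Aurkb itself. Birc5 (survivin, probe 10382998) targets the complex to the centromere. It stood at 7.46, 6.27 and 6.54 in AI4 and at 9.62, 9.09 and 8.53 in Rip-B7xAI4, with no overlap. The difference was 2.32 ± 0.40 (limma adjusted p = 0.191), or 4.99-fold between values that were above the median of their array on all 6 arrays. Incenp, the scaffold of the complex, stood at 6.29, 7.05 and 6.90 in AI4 and at 8.72, 7.89 and 7.57 in Rip-B7xAI4, a difference of 1.31 ± 0.35 or 2.48-fold. Cdca8 (borealin), the remaining subunit and not one of the 45, had means of 5.88 ± 1.25 (SD, n = 3) and 7.89 ± 0.49 (SD, n = 3) and differed by 2.02 ± 0.62. Whether Aurkb differed from its partners in its response was not tested.

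Of the 4 genes of the centromere and inner kinetochore, 1 was higher on every Rip-B7xAI4 array, as 5.99% of all tested genes were, and 3 overlapped between the groups. Cenpa, the histone H3 variant that marks the centromere, stood at 7.28, 7.92 and 8.24 in AI4 and at 8.74, 8.69 and 8.16 in Rip-B7xAI4. It overlapped through AI4 replicate 3 and Rip-B7xAI4 replicate 3, with a difference of 0.71 ± 0.30 that was 0.44 without AI4 replicate 1. Cenph, Cenpk and Cenpn belong to the network of proteins built on CENP-A. Cenpk stood at 6.22, 4.54 and 4.64 in AI4 and at 8.05, 7.01 and 6.24 in Rip-B7xAI4, a difference of 1.97 ± 0.60 (limma adjusted p = 0.486) whose groups were separated by 0.02. Cenph stood at 6.22, 6.57 and 4.74 against 8.56, 7.16 and 6.04 and overlapped, with a difference of 1.42 ± 0.72 that was 0.76 without Rip-B7xAI4 replicate 1 and 0.87 without AI4 replicate 3. Cenpn had means of 5.97 ± 0.22 (SD, n = 3) and 6.68 ± 0.98 (SD, n = 3), and its highest array, Rip-B7xAI4 replicate 1 at 7.75, set most of its difference of 0.71 ± 0.47, which was 0.18 without that array.

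The outer kinetochore, which grips the microtubules, held some of the most clearly separated genes. Knl1 (probe 10474875), the platform on which checkpoint proteins assemble, stood at 5.47, 4.88 and 4.93 in AI4 and at 7.63, 6.95 and 7.13 in Rip-B7xAI4. A gap of 1.48 lay between the groups, and the difference was 2.14 ± 0.26 (limma adjusted p = 0.145). Cenpe, a kinesin motor that carries chromosomes to the spindle equator, stood at 6.45, 5.81 and 5.89 against 9.15, 8.30 and 7.55, a difference of 2.29 ± 0.42 (limma adjusted p = 0.206). Cenpf, a large protein that links kinetochores to microtubules and dynein, stood at 5.94, 5.62 and 5.53 against 7.64, 7.01 and 6.33, a difference of 1.30 ± 0.34. Neither gene overlapped between the groups. The 4 subunits of the NDC80 complex, the microtubule-binding rod of the kinetochore, did not show 1 pattern. Nuf2 stood at 5.48, 5.16 and 5.04 in AI4 and at 7.45, 6.68 and 6.78 in Rip-B7xAI4, with a difference of 1.75 ± 0.26 (limma adjusted p = 0.157). Spc24 stood at 7.0, 5.59 and 5.76 against 8.84, 8.13 and 6.45 and overlapped. Ndc80, the subunit after which the complex is named, stood at 8.66, 6.29 and 7.10 in AI4 and at 9.18, 7.95 and 7.26 in Rip-B7xAI4. Its difference of 0.78 ± 0.70 was 0.25 when either AI4 replicate 2 or Rip-B7xAI4 replicate 1 was dropped and 1.43 when AI4 replicate 1 was. Spc25 stood at 7.74, 6.00 and 5.58 against 6.51, 7.06 and 6.14. In Spc24, Ndc80 and Spc25 AI4 replicate 1 was the highest AI4 array by more than 1. Spc25 had the smallest difference of the group, 0.13 ± 0.57, with a 95% interval from -1.23 to 1.48. It was 0.78 without AI4 replicate 1 and -0.30 without AI4 replicate 3.

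Among the kinesins, Kif11 had the largest difference of all 45 genes. Kif11 (Eg5, probe 10462796) pushes the spindle poles apart. It stood at 6.74, 4.80 and 5.01 in AI4 and at 9.16, 8.63 and 8.26 in Rip-B7xAI4, a gap of 1.52 between the groups and a difference of 3.17 ± 0.53 (limma adjusted p = 0.189). Kif15, which can stand in for Eg5, stood at 6.78, 5.82 and 5.23 against 8.16, 7.42 and 6.76, and its groups overlapped by 0.03. Kif23 (MKLP1), the motor of the centralspindlin complex at the spindle midzone, was even across AI4, at 6.07, 6.08 and 5.88. It stood at 9.07, 7.55 and 7.37 in Rip-B7xAI4, a difference of 1.98 ± 0.44 (limma adjusted p = 0.319). Kif4, a motor that binds chromosomes, was not tested because its mean over the 6 arrays was low. Its values were 4.40, 4.06 and 4.19 in AI4, below the median of each array, and 7.29, 6.43 and 5.27 in Rip-B7xAI4. It thus did not overlap either, and in a fit without the filter on dim genes its difference was 2.11 ± 0.48 (limma adjusted p = 0.396). Kif2c (MCAK), which shortens microtubules at their ends, stood at 4.82, 5.01 and 4.54 against 5.47, 6.52 and 4.65 and was not tested for the same reason. The other kinesins differed less. Kif22 (Kid), which pushes chromosome arms outward, differed by 0.70 ± 0.33 (0.45 without Rip-B7xAI4 replicate 2), and Kif20a (MKLP2), which brings the passenger complex to the midzone, by 0.48 ± 0.22. The values of Kif20a were below the median of the array on all 6 arrays, as were those of Espl1. Kif20b, which acts in cytokinesis, stood at 6.94, 6.05 and 6.91 in AI4 and at 8.56, 7.10 and 5.99 in Rip-B7xAI4. Its difference of 0.58 ± 0.63 was -0.09 without Rip-B7xAI4 replicate 1.

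All 3 spindle microtubule-associated genes were higher in every Rip-B7xAI4 array, as 5.99% of all tested genes were. Prc1 (probe 10554445) bundles antiparallel microtubules at the midzone, where Kif4 and Kif23 also work. Prc1 stood at 5.14, 4.71 and 5.55 in AI4 and at 7.38, 7.65 and 7.07 in Rip-B7xAI4. The arrays within each group stayed within 0.84 of each other, and the difference of 2.23 ± 0.27 had a limma adjusted p = 0.145. Nusap1, a microtubule-bundling protein near the chromosomes, stood at 6.05, 5.11 and 6.08 against 8.16, 7.10 and 8.05 and differed by 2.02 ± 0.38. In this gene replicate 2 was the lowest array of both groups. Tpx2, which activates Aurora A on the spindle, stood at 6.63, 5.42 and 5.35 against 8.05, 8.02 and 6.67, with a difference of 1.78 ± 0.49 (limma adjusted p = 0.464).

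The 3 genes around the anaphase-promoting complex differed in size. Mad2l1 (Mad2), the checkpoint protein that sequesters Cdc20, stood at 5.49, 5.37 and 7.28 in AI4 and at 8.78, 9.13 and 8.03 in Rip-B7xAI4. Here AI4 replicate 3, not replicate 1, was the high AI4 array, and the difference of Mad2l1 was 2.60 ± 0.56 (limma adjusted p = 0.296). Ube2c, the ubiquitin-conjugating enzyme of the complex, stood at 6.02, 6.13 and 5.71 against 7.15, 6.83 and 7.19. Its difference of 1.10 ± 0.20 was smaller but steady within groups (limma adjusted p = 0.206). Cdc20, the activator of the complex, stood at 6.75, 6.61 and 6.37 against 7.38, 7.09 and 6.75, so that AI4 replicate 1 and Rip-B7xAI4 replicate 3 met. Its 95% interval ran from -0.03 to 1.02.

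The 4 cytokinesis genes ranged from one of the clearest separations to none. Shcbp1 (probe 10576883), a midbody protein that binds centralspindlin, was even and low in AI4, at 4.89, 4.94 and 5.02. It stood at 7.46, 7.93 and 6.81 in Rip-B7xAI4. The gap of 1.79 was the widest of all 45 genes, and the difference was 2.45 ± 0.29 (limma adjusted p = 0.145). Ect2, the exchange factor that switches on RhoA for the cleavage furrow, stood at 5.72, 4.87 and 5.10 against 7.13, 6.52 and 5.72, and its groups touched at AI4 replicate 1 and Rip-B7xAI4 replicate 3. Anln (anillin), the furrow scaffold, stood at 5.56, 4.97 and 4.74 against 5.95, 6.87 and 5.01 and overlapped, and its difference of 0.85 ± 0.48 was 0.39 without Rip-B7xAI4 replicate 2 and 1.32 without replicate 3. Racgap1, the partner of Kif23 in centralspindlin, stood at 8.31, 6.69 and 6.86 in AI4 and at 7.46, 8.15 and 7.65 in Rip-B7xAI4. AI4 replicate 1 was thus its highest array of all 6, and the interval of the Racgap1 difference ran from -0.61 to 1.54, while Kif23 did not overlap. The Racgap1 difference was 0.98 without AI4 replicate 1 and 0.17 without AI4 replicate 2.

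Condensin held the only member that was lower in Rip-B7xAI4. Smc2 and Smc4 form the ATPase pair shared by all condensin complexes. Smc2 stood at 7.37, 6.48 and 7.19 in AI4 and at 9.83, 9.0 and 8.37 in Rip-B7xAI4, a difference of 2.05 ± 0.41 (limma adjusted p = 0.251) or 4.15-fold. Smc4 stood at 10.82, 10.63 and 10.87 in AI4 and at 10.53, 10.46 and 10.11 in Rip-B7xAI4. All Rip-B7xAI4 arrays were below all AI4 arrays for Smc4, with a difference of -0.40 ± 0.19 whose 95% interval ran from -0.85 to 0.04. Of all 13950 tested genes, 1656 were likewise lower on every Rip-B7xAI4 array, and 836 were higher on every one. Under quantile normalization the Smc4 difference was -0.64, with an unadjusted p of 0.00744 in limma against 0.0688 as deposited, and an adjusted p of 0.416. The condensin I subunit Ncapg stood at 5.12, 5.57 and 5.72 against 9.01, 7.87 and 6.96 and differed by 2.48 ± 0.50 (limma adjusted p = 0.251). Ncaph, its partner that closes the ring, stood at 5.75, 5.02 and 5.45 against 7.30, 7.0 and 5.35 and overlapped through Rip-B7xAI4 replicate 3, with a difference of 1.14 ± 0.52 that was 1.74 without that array. Of the genes of sister chromatid cohesion, Sgo1 (shugoshin), which protects centromeric cohesin, stood at 5.67, 5.74 and 5.66 against 6.64, 6.75 and 5.85. It differed by 0.72 ± 0.26 with no overlap. Espl1 encodes separase, which cuts cohesin at anaphase. It had means of 5.62 ± 0.05 (SD, n = 3) and 5.72 ± 0.28 (SD, n = 3) and an interval from -0.36 to 0.56.

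**Figure D4:**
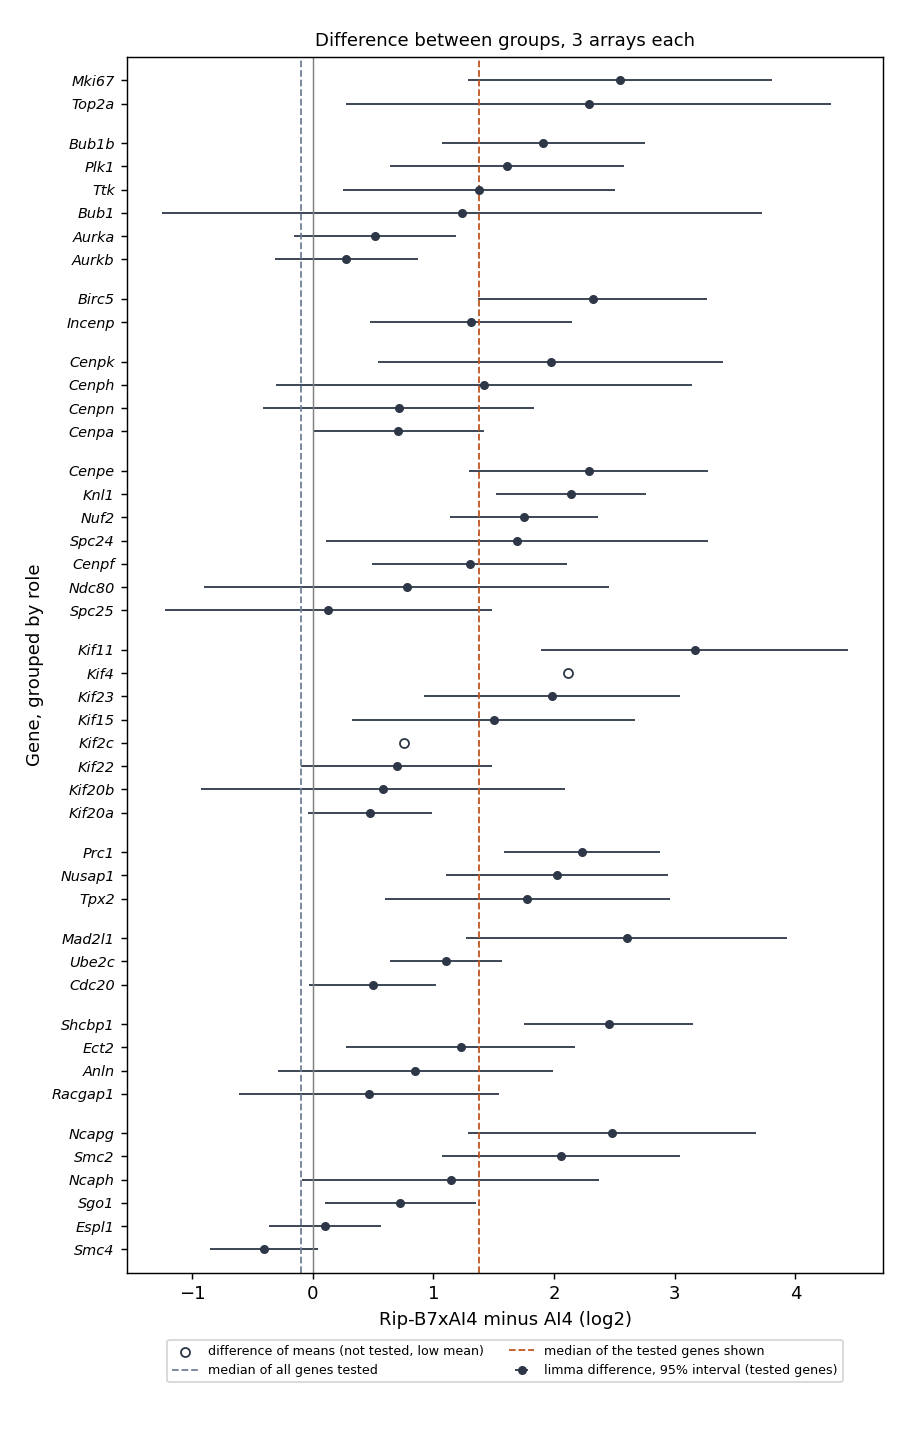
Log2 difference, Rip-B7xAI4 minus AI4 (horizontal axis), of the 45 genes grouped by role; bars are 95% intervals from limma and open circles are Kif2c and Kif4, which were not tested. Dashed lines mark the medians over the tested members (1.38) and over all tested genes (-0.10); Kif11 lies furthest to the right at 3.17 and Smc4 is the only gene below 0.

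By role, the 2 genes Mki67 and Top2a had a median difference of 2.42 and the 3 spindle-associated proteins one of 2.02. The median was 1.81 for Birc5 and Incenp and 1.69 for the 7 outer kinetochore genes. It was 1.31 for the 6 kinases, 1.13 for the 8 kinesins and 1.10 for the 3 genes around the anaphase-promoting complex. The lowest medians were those of the inner kinetochore (1.06), cytokinesis (1.04) and cohesion and condensin (0.93). Differences within a role ran from -0.40 to 2.48 in cohesion and condensin and from 0.48 to 3.17 in the kinesins, but only from 2.29 to 2.55 for Mki67 and Top2a and from 1.78 to 2.23 for the spindle-associated proteins. Whether the roles differed from each other was not tested.

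The members also varied together within each group. In Rip-B7xAI4, replicate 1 was the highest array for 33 of the 45 genes and replicate 3 the lowest for 38, against 35.7% and 34.7% of all tested genes. The order of replicate 1 over 2 over 3 held for 28 of the 45, while it held for 21% of all tested genes. In AI4, replicate 1 was the highest array for 30 genes, or 66.7%, against 46.2% of all tested genes. It stood more than 1 above both other AI4 arrays for 9 genes, a count without its share over all genes. The median SD of the 45 genes was 0.37 over AI4 arrays but 0.66 over Rip-B7xAI4 arrays, against 0.26 and 0.25 over all tested genes. Averaged over the 45 genes, AI4 replicates 1 to 3 stood at 6.40, 5.78 and 5.85, and Rip-B7xAI4 replicates 1 to 3 at 7.96, 7.49 and 6.78. By this mean the lowest Rip-B7xAI4 array lay 0.38 above the highest AI4 array. Rip-B7xAI4 replicates 1, 2 and 3 exceeded the highest AI4 array for 42, 39 and 25 of the 45 genes. For replicate 2 this held for 19.7% of all tested genes. For replicates 1 and 3 that share was not counted.

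Within Rip-B7xAI4, the array with few myeloid transcripts, replicate 2, had mitotic genes between those of the 2 arrays rich in them. Within AI4 the 2 lists ran in the same order. There the mitotic means were 6.40, 5.78 and 5.85 in replicates 1 to 3, and the myeloid means 6.50, 5.92 and 6.29. The part of myeloid transcripts in the mitotic differences was not tested. Without Rip-B7xAI4 replicates 1 and 3 together, which leaves replicate 2 alone with the spread taken from AI4, the median difference of the members was 1.40. In that fit 26 of 43 were higher at an unadjusted p under 0.05 in limma (3.67% of all genes), and 37 exceeded every AI4 array, against 19.7% of all genes. Without Rip-B7xAI4 replicate 3 the median was 1.85 and the number with no overlap also 37 (12.3% of all genes). Without Rip-B7xAI4 replicate 1 the median was 0.98.

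**Figure D5:**
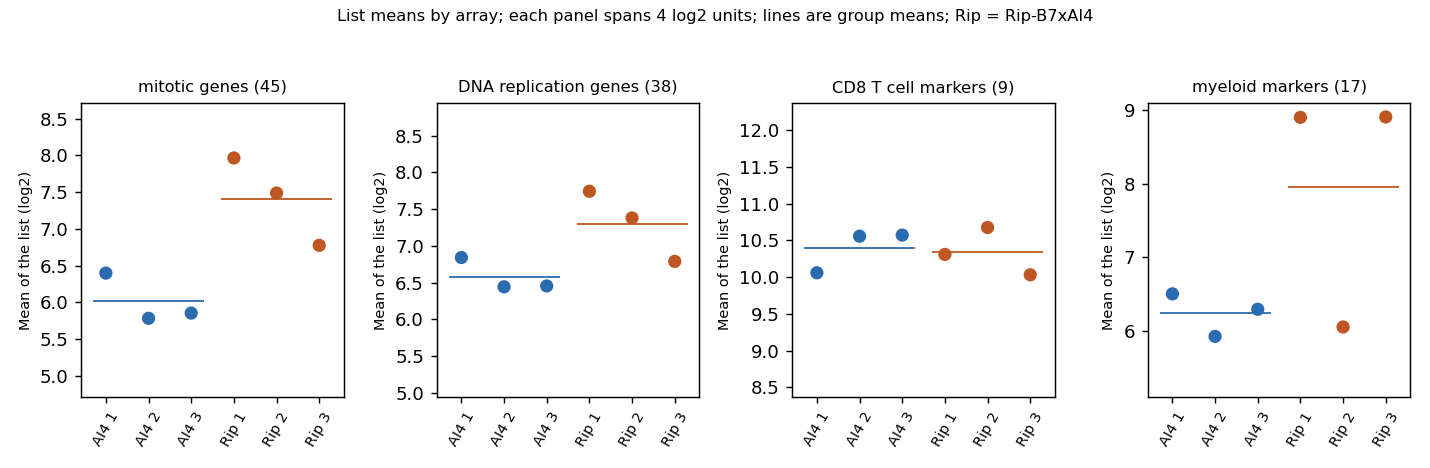
Mean log2 expression (vertical axis, each panel spanning 4 units) on each of the 6 arrays for the 45 mitotic genes, 38 DNA replication genes, 9 CD8 T cell markers and 17 myeloid markers; horizontal lines are group means. The mitotic genes lie at 6.78 to 7.96 in Rip-B7xAI4 and 5.78 to 6.40 in AI4, whereas the myeloid markers are high in Rip-B7xAI4 replicates 1 and 3 only.

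Other genes of mitosis outside the 45 had smaller differences as lists, and none passed an adjusted p of 0.05 in limma. At an unadjusted p under 0.05 in limma, 5.56% of all tested genes were higher and 3.17% lower, and the counts below use that limit. Of 14 tested genes of cyclin B, Cdk1 and mitotic transcription, 5 were higher and 0 lower, with a median difference of 0.68. Ccna2 (cyclin A2) had means of 5.78 ± 0.21 (SD, n = 3) and 8.09 ± 0.86 (SD, n = 3), and Cdk1, the kinase it activates, differed by 1.87 ± 0.52. Cdc25b, the phosphatase that activates Cdk1, differed by 0.82 ± 0.23. Of 22 further spindle and cytokinesis genes 8 were higher and 0 lower, with a median of 0.69. Among them Tacc3, which stabilises spindle fibres, differed by 2.18 ± 0.33 (limma adjusted p = 0.158), Haus1 by 1.43 ± 0.47 and Ckap5 by 1.13 ± 0.38. Of 19 further kinetochore and centromere genes 3 were higher and 0 lower, with a median of 0.11. These 3 were Cdca8, given above, and the microtubule-coupling genes Ska2 and Ska3, which differed by 0.63 ± 0.21 and 0.91 ± 0.37.

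Of 16 cohesin, condensin and separation genes 2 (12.5%) were higher and 0 lower at that limit, against 5.56% and 3.17% of all tested genes. Their median was 0.24. The condensin II subunit Ncapg2 differed by 1.41 ± 0.25 (limma adjusted p = 0.206) and the cohesin subunit Rad21 by 0.70 ± 0.24, while the condensin I subunit Ncapd2 differed by 0.76 ± 0.33. The 15 anaphase-promoting complex genes, most of which encode subunits, had 0 higher and 1 lower, with a median of 0.39. The lower one was Cdc26, at -0.93 ± 0.34, while Anapc13 and Cdc27 differed by 0.39 ± 0.20 and 0.86 ± 0.45. DNA replication genes, which act in S phase, lay between. Of 35 tested, 16 (45.7%) were higher and 0 lower, and the median was 0.72. In the higher direction 13 (37.1%) did not overlap, against 5.99% of all tested genes. Rfc4 and Lig1 both differed by 1.12, with SE of 0.26 and 0.28, and Dut by 1.08 ± 0.29. By array the replication list averaged 6.84, 6.44 and 6.46 for AI4 against 7.74, 7.38 and 6.79 for Rip-B7xAI4, the same order of arrays within Rip-B7xAI4 as for the mitotic genes. For replication genes the lowest Rip-B7xAI4 array lay below the highest AI4 array, whereas for the 45 mitotic genes it did not.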

How the data were processed

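Total RNA of sorted CD8 T cells was labelled with biotin and hybridised to 6 Affymetrix Mouse Gene 1.0 ST arrays, 3 per group, with groups taken from the sample titles. Affymetrix Expression Console made the values, per the submitters' processing notes, and its version and settings were not stated. The deposited normalized values, 1 for each probe on each array, were read as log2 from their range. Of 28325 probes, 21760 named 1 gene in the platform annotation, 1621 several and 4944 none. Keeping the probe with the highest mean per gene left 19929 genes, and the 30% with a mean under 5.471 were not tested, leaving 13950.

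All tested genes were fitted together with limma 3.58.1 (R 4.3.3; lmFit and eBayes, group as the only term, two-sided) and adjusted by Benjamini and Hochberg. Differences are Rip-B7xAI4 minus AI4 and intervals are 95%. The fit was tested on simulated data. Background was not measured, so a fold is given only where all arrays exceeded their median, and the 3 arrays per group limit the precision. Promoters came from a RefSeq table. The members and lists were chosen with earlier results of these data known. The named genes are all 45 members, up to 3 tested genes per pathway list by smallest p, and marker genes. Of the marker genes, Lyz2, Adgre1, Cd8b1, Klrb1c, Klre1 and Pdgfrb were named after their values were seen. The labels state no pairing by replicate number, and the main fit used none.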

Additional observations from a re-analysis of the deposited data

How the results depend on the processing

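The fit was repeated under 15 alternatives. The numbers of members higher at unadjusted p under 0.05 (20 to 35) and 0.01 (14 to 28) stayed within 1.5 times the values reported, while the share of all genes ranged from 3.49% to 8.97% and from 1.04% to 3.69%, highest with array weights. No member passed an adjusted p of 0.05 in limma except with array weights, where 7 of 38 genes passing were members: Birc5, Cenpe, Kif11, Prc1, Shcbp1, Knl1 and Nuf2. The cause was not tested. The weights were 2.64 and 2.49 for replicate 2 of AI4 and Rip-B7xAI4 and 0.41 to 0.80 for the other arrays. Leaving out 1 array at a time gave 23 to 37 members with no overlap (8.02% to 12.3% of all genes, against 5.99% with all arrays) and a median difference of 0.98 to 1.85, and 37 had no overlap when Rip-B7xAI4 replicates 1 and 3 were both left out, where fewer arrays are compared. Of 638 values of single members, 7 changed sign. Spc25 did so when AI4 replicate 2 (-0.089), AI4 replicate 3 (-0.30) or Rip-B7xAI4 replicate 2 (-0.12) was left out, with a range of -0.30 to 0.78 over single arrays left out. Kif20b ranged from -0.089, when Rip-B7xAI4 replicate 1 was left out, to 1.20. Espl1 ranged from -0.0013, when Rip-B7xAI4 replicate 1 was left out, to 0.26, and stood at -0.22 with that array and replicate 3 both left out and at -0.035 with array weights. The cause was not tested. With the replicate block 30 members were higher at unadjusted p under 0.05 (5.53% of all genes), 25 at 0.01 (1.71%) and 0 after adjustment. Deviations of arrays with the same number correlated at -0.08, 0.06 and -0.22 over all tested genes. Among the 45 members, replicate 1 was the highest array for 30 in AI4 and for 33 in Rip-B7xAI4. Whether the numbers pair the arrays was not tested, and 3 arrays per group cannot decide it. Quantile normalization gave a median of 1.29 and median centring one of 1.45, with the median over all genes at -0.10 and -0.03. The pseudocount alternative did not apply to log2 values. Without a measure of background, differences of dim members may be understated.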
